A study of Mus musculus with 8 samples.

Results

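CpG methylation was examined at 9 genes of the B lymphocyte lineage (Ebf1, Pax5, Cd79a, Cd79b, Blnk, Vpreb1, Igll1, Rag1 and Rag2) in mouse hematopoietic stem cells with and without the autophagy gene Atg12. Each locus ran from 5 kb before to 5 kb after the gene on GRCm38 (mm10) coordinates, and a CpG was kept where at least 3 mice of each group had 10 or more reads. The loci held 737 of the 1278034 autosomal CpGs kept, out of 2817 CpGs listed there in any mouse. The assay was an enhanced form of reduced representation bisulfite sequencing, which reads CpG-rich restriction fragments after bisulfite has changed unmethylated cytosine to thymine. The knockout group was 4 C57BL/6 mice of genotype Atg12fl/flMx1-cre, in which the interferon-inducible Mx1 promoter drives Cre in blood cells and in other tissues as well. The control group was 4 C57BL/6 mice, given as Atg12flox/flox without Cre in the series description and as WT in the genotype label, so their alleles are not certain. All 8 mice received poly(I:C), the interferon inducer that switches on Cre, at 4 weeks of age, and stem cells (c-Kit+ and Sca-1+, without lineage markers or Flk2, positive for CD150 and negative for CD48) were sorted from bone marrow 2 to 3 months later without culture, with 1 library per mouse. Values by mouse are given below in the order 25, 28, 45 and 46 for the knockouts and 1, 34, 36 and 37 for the controls, which are the mouse numbers of the labels.

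Ebf1 and Pax5 are the transcription factors that specify and then commit lymphoid progenitors to the B cell fate. Vpreb1 and Igll1 encode the surrogate light chain of the pre-B cell receptor, Cd79a and Cd79b its signalling chains and those of the mature receptor, and Blnk the adaptor that couples the receptor to downstream kinases. Rag1 and Rag2 form the recombinase that assembles antigen receptor genes. Stem cells stand upstream of this programme, and methylation of a CpG-poor promoter is commonly found where the gene is silent, while CpG-dense promoters are usually unmethylated whether or not the gene is used.

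The loci differed far more from each other than the genotypes did. The CpG-dense starts of Ebf1 and Pax5 had mean levels of 0.25% to 5.18%, apart from a partly methylated stretch at a second Ebf1 start. The CpGs measured in all mice within 1 kb of the Vpreb1, Igll1 and Rag1 starts had group means of 93.0% to 97.9% with reads summed. At Vpreb1 and Rag1 all of these CpGs lay inside the gene, so the 1 kb before the start was not measured there. None of the 254 CpGs tested, of the 35 windows of 1 kb tested or of the 6 whole loci tested differed between knockouts and controls after adjustment over the genome. The start of Cd79a and the whole of Rag2 could not be assessed in enough mice.

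The promoter windows of 3 members are printed to show the contrast in CpG content and which of their CpGs were measured. They run from 250 bases before to 50 after the RefSeq start on GRCm38.p6, 5′ to 3′ on the gene's strand, with the CpGs kept here in capitals. The letters CCGG, where the MspI enzyme of reduced representation protocols cuts, read the same on both strands and occur in 52.8% of the 32851 windows of the RefSeq table, whose median window holds 7 CpGs. The window of Ebf1 at its second listed start (chr11:44619978-44620277, plus strand) holds 17 CpGs and 1 CCGG, that of Pax5 (chr4:44710645-44710944, minus strand) 23 CpGs and 1 CCGG, and that of Igll1 (chr16:16863936-16864235, minus strand) 2 CpGs and 2 CCGG.
Ebf1: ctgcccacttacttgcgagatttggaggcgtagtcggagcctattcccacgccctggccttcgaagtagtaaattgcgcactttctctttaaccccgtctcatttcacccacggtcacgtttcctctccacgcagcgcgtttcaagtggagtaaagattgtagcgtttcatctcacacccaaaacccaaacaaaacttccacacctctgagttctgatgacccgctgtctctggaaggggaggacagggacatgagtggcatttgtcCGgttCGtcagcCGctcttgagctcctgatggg
Pax5: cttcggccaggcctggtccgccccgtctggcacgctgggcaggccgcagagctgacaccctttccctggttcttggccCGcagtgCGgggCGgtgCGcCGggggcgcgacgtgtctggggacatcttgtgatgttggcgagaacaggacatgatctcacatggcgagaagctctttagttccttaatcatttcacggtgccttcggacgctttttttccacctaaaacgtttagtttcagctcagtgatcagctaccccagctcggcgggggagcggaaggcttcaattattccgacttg
Igll1: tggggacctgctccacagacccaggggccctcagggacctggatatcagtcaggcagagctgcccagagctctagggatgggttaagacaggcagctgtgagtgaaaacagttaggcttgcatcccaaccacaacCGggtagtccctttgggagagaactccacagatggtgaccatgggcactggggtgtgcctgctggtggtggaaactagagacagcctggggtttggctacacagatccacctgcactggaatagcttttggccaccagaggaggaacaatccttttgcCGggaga
The 3 capital CpGs of Ebf1 had mean levels of 1.98% to 7.87% over the mice, and the 5 of Pax5 3.17% to 6.12%. Both CpGs of Igll1 were measured and stood at 95.1% and 96.3%. Of the 9 members, 8 have a window in that table. The windows of Cd79a (8 CpGs), Blnk (7), Rag1 (3), Rag2 (3) and Vpreb1 (2), and that of the first Ebf1 start (9), held no CpG that was kept.

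The files listed between 2038266 and 3366162 cytosines per mouse, and the median coverage of the CpGs measured in all mice was 212 to 293 reads. Coverage of methylated relative to unmethylated CpGs ranged from 0.338 to 0.552 in knockouts and from 0.256 (mouse 34) to 0.734 in controls. Libraries also differed by genotype in the cytosines listed on the Y chromosome, 7.90 to 9.01 per 10000 in knockouts and 1.15 to 1.83 in controls, and in those on the X chromosome, 1.83% to 1.93% and 2.42% to 2.54%. Sex is not in the labels, so genotype and whatever sets these shares cannot be told apart, although all 9 genes are autosomal. The starts of 8 of 13 stem cell genes could be measured and all 8 were under 5%, but so were 86.0% of all 12975 start windows measured, so the labelled cell type could not be checked from them.

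Ebf1 lies at chr11:44618100-45008096 on the plus strand, with 184 CpGs kept of 1020 listed. Within 1 kb of its first listed start (position 44618100), 32 CpGs gave 0.53%, 0.06%, 0.04% and 0.39% methylation in knockouts and 0.27%, 0.15%, 0.31% and 0.85% in controls. Means were 0.25% ± 0.25 (SD, n = 4) and 0.40% ± 0.31 (SD, n = 4), and the groups overlapped. Around the second listed start (44620228), 14 CpGs covered by 1047 to 1698 reads per mouse gave 33.4%, 28.03%, 42.4% and 29.98% in knockouts and 22.9%, 21.9%, 38.2% and 34.04% in controls. This was the only start window of the 9 genes that fell in the tested range of 5% to 95%, and it did not differ in the moderated quasi-binomial test (33.5% ± 6.38 against 29.3% ± 8.10, adjusted p = 0.941). Levels inside the window were uneven, and reads were summed, so CpGs with more reads counted more. Its 13 CpGs at chr11:44620001-44621000 gave 17.99% in knockouts and 14.6% in controls. Among them, the CpGs 2480 and 2485 bases after the first listed start stood at 81.7% and 63.1% over the mice. The last CpG of the window, 3106 bases after that start, was at 80.4%. It falls in chr11:44621001-44622000, whose 4 CpGs gave 76.7% and 76.1%. None of the 1587 start windows tested over the genome was called, a background of 0%.

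Beyond its start, the Ebf1 gene body was mostly methylated with short unmethylated stretches. The 83 CpGs inside the gene and more than 1 kb from a start averaged 64.2% ± 1.73 in knockouts and 65.4% ± 0.91 in controls. Against this level, the window chr11:44665001-44666000 with 12 CpGs stood at 2.43% and 1.56%, and chr11:44833001-44834000 with 6 CpGs at 9.82% and 13.6%, while the window next to the latter, chr11:44832001-44833000, stood at 43.7% and 43.0%. Just past the end of the gene, in its downstream flank, the 3 CpGs of chr11:45008001-45009000 were at 0.05% and 0.84%. Each of these stretches was low in both genotypes.

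Pax5 lies at chr4:44524748-44710694 on the minus strand and had the most CpGs, 383 kept of 1196 listed. Within 1 kb of its start (44710694), 5 CpGs gave 12.9%, 0%, 0% and 7.77% in knockouts and 10.5%, 3.85%, 3.32% and 0% in controls, on 150 to 1245 reads summed per mouse. The groups overlapped, at 5.18% ± 6.34 and 4.43% ± 4.42. Most of its unmethylated CpGs lay elsewhere: 72 CpGs inside the gene at chr4:44664001-44665000 averaged 0.42% and 0.55%, 56 at chr4:44703001-44704000 3.01% and 2.53%, and 63 at chr4:44704001-44705000 0.58% and 0.78%. The latter pair overlaps the non-coding gene 5730488B01Rik (chr4:44702800-44705110). A further unmethylated stretch of 14 CpGs deep in the gene, chr4:44558001-44559000, was at 3.14% and 3.18%, and 39 CpGs upstream of the start averaged 3.18% and 2.83%. Other Pax5 windows, such as chr4:44593001-44594000 at 94.2% and 93.4%, were highly methylated.

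**Figure D1:**
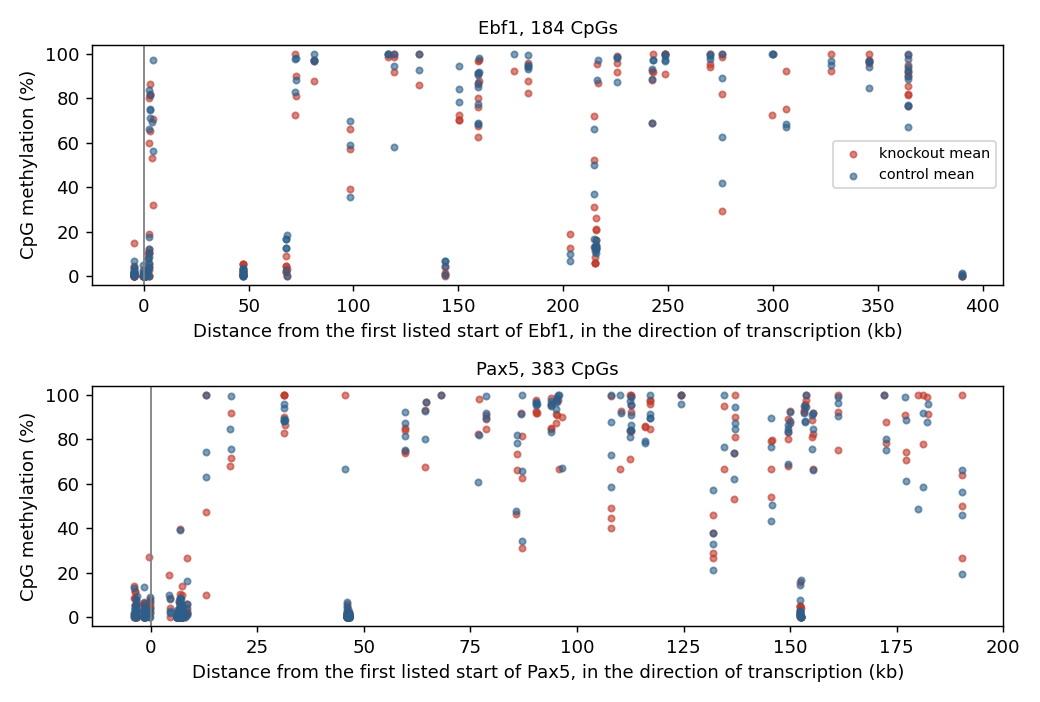
Methylation of the 184 Ebf1 and 383 Pax5 CpGs kept, as the mean of the knockouts and of the controls (vertical axis, percent), against distance from the first listed start in the direction of transcription (horizontal axis, kb). In both genes CpGs around the start and in a few short stretches of the gene body lie near 0%, with highly methylated CpGs between them, and the genotypes follow the same outline.

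Averaged over the whole locus with each CpG weighted equally, Ebf1 stood at 39.4%, 40.5%, 37.7% and 39.8% in knockouts and 39.7%, 39.0%, 40.6% and 41.0% in controls. The difference was -0.73 percentage points (95% interval -3.29 to 1.55, from inverting the exact permutation test), and the exact two-sided permutation p was 0.4. Pax5 stood at 20.9%, 21.1%, 22.3% and 22.8% in knockouts and 22.1%, 21.9%, 22.2% and 22.2% in controls. Its difference was -0.33 points (-1.31 to 0.86; exact permutation p = 0.457). With 4 mice against 4, the smallest p this test can give is 0.0286. When reads were summed instead of averaging CpGs, the Ebf1 difference was -3.26 points and still did not pass. The Pax5 difference changed sign without knockout 25 (0.04 points), well inside the interval.

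Vpreb1 (chr16:16868401-16869255, minus strand) and Igll1 (chr16:16860671-16863985, minus strand) are neighbours, and all 8 CpGs kept at the Igll1 locus also belong to the Vpreb1 locus. The 5 CpGs within 1 kb of the Vpreb1 start (16869255) gave 94.9%, 97.4%, 97.0% and 100% in knockouts and 97.0%, 96.8%, 97.3% and 97.2% in controls. The 3 CpGs within 1 kb of the Igll1 start (16863985) gave 91.2%, 89.9%, 94.7% and 96.0% in knockouts and 95.2%, 100%, 96.9% and 99.5% in controls, on 187 to 436 reads summed per mouse. With reads summed, the CpGs near both starts were highly methylated in every mouse. Those of Igll1 weighted equally gave 77.8% in knockout 28. Those of Vpreb1 lie inside the gene, at 16868666 to 16868760, and no CpG was kept in the 1 kb before its start. In the Igll1 window the 3 lowest mice were knockouts, and knockout 46 alone lay above the lowest control.

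At Igll1 the outcome turned on how much flank was taken, on how CpGs were weighted and on whether 1 CpG was included. Its locus mean over 8 CpGs was 94.8% ± 3.87 in knockouts and 97.6% ± 0.59 in controls, a difference of -2.83 points (-7.81 to 1.64; exact permutation p = 0.343). With a flank of 2 kb only the 3 CpGs at its start remained. Weighted equally they differed by -8.36 points, and the groups no longer overlapped (exact permutation p = 0.0286, the smallest possible, not adjusted). With reads summed, as in the start window above, the same 3 CpGs differed by -4.96 points and the groups overlapped. With no flank 2 CpGs remained and the difference was -11.8 points (exact permutation p = 0.143). With at least 20 reads per CpG and the full flank it was -0.73 points over 7 CpGs (exact permutation p = 0.886). That run left out position 16863700, where control 1 had 11 reads. At 1 of the 3, position 16863700, knockout 28 had 33.3% on 54 reads, the other knockouts 96.7%, 100% and 100%, and every control 100%. That CpG had an adjusted p of 0.784. Without knockout 28 the locus difference over 8 CpGs was -1.34 points.

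The Vpreb1 locus mean mostly described another gene. Of its CpGs measured in all mice, 39 lie at the start of Top3b, a topoisomerase gene, and averaged 1.16% ± 0.42 in knockouts and 0.59% ± 0.53 in controls. The mean of 47 CpGs was therefore 17.1% in both groups, with a difference of -0.01 points (-1.40 to 0.98; exact permutation p = 1). Its sign changed under several settings. Over the 5 CpGs of the gene itself the difference was 0.49 points.

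The same applied to Cd79a (chr7:24897497-24901858, plus strand). All 55 of its kept CpGs lie outside the gene, and the 54 measured in all mice fall near the starts of Arhgef1, a guanine nucleotide exchange factor gene. They averaged 1.41% ± 0.92 in knockouts and 1.36% ± 0.41 in controls, a difference of 0.05 points (-1.27 to 1.76; exact permutation p = 0.971). Within 1 kb of the Cd79a start (24897497), 10 CpGs were listed, none in more than 3 mice. Of the 20 single values there, 17 were over 80%, which is too few mice for a comparison.

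**Figure D2:**
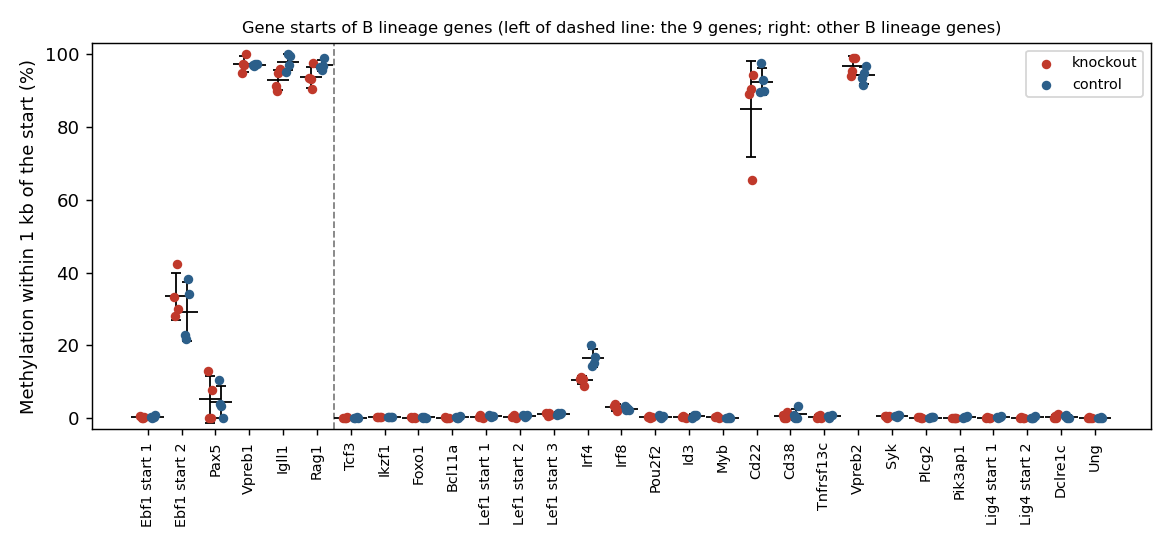
Methylation within 1 kb of gene starts (vertical axis, percent of reads summed over CpGs) in each knockout (red) and control (blue), with bars for the mean and SD of 4 mice; the members are left of the dashed line and other B lineage genes right of it. Starts lie near 0% or above 80% apart from the second Ebf1 start, Pax5 in some mice, Irf4 and 1 knockout at Cd22, and the Vpreb1, Igll1 and Rag1 starts are high in all 8 mice.

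Cd79b (chr11:106311341-106314562) varied most between mice. Its locus mean over 14 CpGs was 23.0%, 29.0%, 46.1% and 31.5% in knockouts and 34.4%, 13.0%, 36.8% and 39.1% in controls. The SD over all 8 mice was 10.2 points, higher than at 99.2% of the 16740 gene loci measured, whose median SD was 0.79. Knockout 45 was the highest and control 34 the lowest. The difference of 1.61 points (-16.0 to 33.1; exact permutation p = 0.886) became -2.95 without knockout 45 and -4.34 without control 34. The 5 CpGs inside the gene were low, at 3.49% ± 4.89 and 2.92% ± 1.04, and the spread lay in 9 flanking CpGs, at 48.5% ± 15.4 and 46.3% ± 18.2. In those 9 CpGs knockout 45 had 70.6% and control 34 19.4%. Control 34 also had the lowest relative coverage of methylated CpGs (0.256), whose part in this was not tested. The window of smallest p, chr11:106319001-106320000, had 5 CpGs on 1383 to 2846 reads and stood at 26.5%, 36.01%, 60.8% and 34.1% in knockouts and 30.4%, 17.8%, 34.5% and 41.5% in controls (adjusted p = 0.864).

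Blnk (chr19:40928927-40994221, minus strand) showed the largest locus difference among the 8 measured members. Its mean over 15 CpGs was 72.4%, 78.0%, 76.6% and 74.4% in knockouts and 69.1%, 66.5%, 73.0% and 74.9% in controls. The difference of 4.48 points (-2.49 to 11.5) did not pass (exact permutation p = 0.143; limma adjusted p = 0.995), and it fell to 1.35 points without control 34 and to -0.26 when reads rather than CpGs were averaged. The 11 CpGs inside the gene averaged 89.0% ± 5.22 and 83.7% ± 1.04, and 4 CpGs upstream 37.7% ± 8.43 and 35.7% ± 16.6.

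The smallest p of any CpG of the 9 loci was upstream of Blnk, at chr19:40995884, position -1663 relative to its start. It read 0.61%, 5.21%, 0% and 0% in knockouts and 18.1%, 6.22%, 28.3% and 17.1% in controls, on 82 to 431 reads. Every control was above every knockout (1.45% ± 2.52 against 17.4% ± 9.03), but control 34 lay close to knockout 28 and the quasi-binomial adjusted p was 0.689. Inside the gene, the CpG at 40959461 went the other way, with 75.5% ± 8.54 in knockouts and 66.8% ± 5.35 in controls, and the groups did not overlap (adjusted p = 0.784). Within 1 kb of the Blnk start itself no CpG was kept.

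Rag1 (chr2:101638252-101649532, minus strand) had highly methylated means at its start and over the locus. Single values of all listed CpGs were less even. Over the locus 14 of 240 were under 20%, and within 1 kb of the start 7 of 58 were under 20% and 45 over 80%. The 5 CpGs within 1 kb of its start (101649532) gave 93.6%, 93.2%, 90.4% and 97.5% in knockouts and 96.4%, 95.7%, 96.8% and 99.0% in controls. These CpGs lie inside the gene, at 101648751 to 101649204, and no CpG before the start was kept. The locus mean over 20 CpGs was 93.5%, 87.8%, 90.4% and 91.6% against 89.9%, 96.1%, 91.6% and 88.7%, a difference of -0.75 points (-8.36 to 4.85; exact permutation p = 0.743). It was 0.27 points without knockout 28 and 0.76 without control 34.

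A window inside Rag1 had the smallest p of the 35 windows tested, and its difference depended on how CpGs were weighted. With reads summed over 9 CpGs, chr2:101642001-101643000 stood at 88.0%, 87.0%, 96.7% and 78.5% in knockouts and 79.2%, 81.4%, 65.2% and 58.3% in controls (87.5% ± 7.45 against 71.0% ± 11.1; p = 0.00633 and adjusted p = 0.63 in the quasi-binomial test). With the same CpGs weighted equally, the means were 86.1% ± 4.51 and 86.1% ± 6.54, a difference of 0.03 points. The CpGs at 101642232 and 101642283 carried 372 to 381 reads each in controls 36 and 37 and 23 to 67 in knockouts 28 and 45. At the first of them the knockouts had 63.6%, 0%, 100% and 47.6%.

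Rag2 (chr2:101624712-101632528, plus strand), next to Rag1 in the genome, had 22 CpGs listed and none kept, since no CpG was listed in more than 2 mice. Of its 29 single values 20 were over 80% and 8 under 20%, and 28 were exactly 0% or 100%. No comparison was possible.

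**Figure D3:**
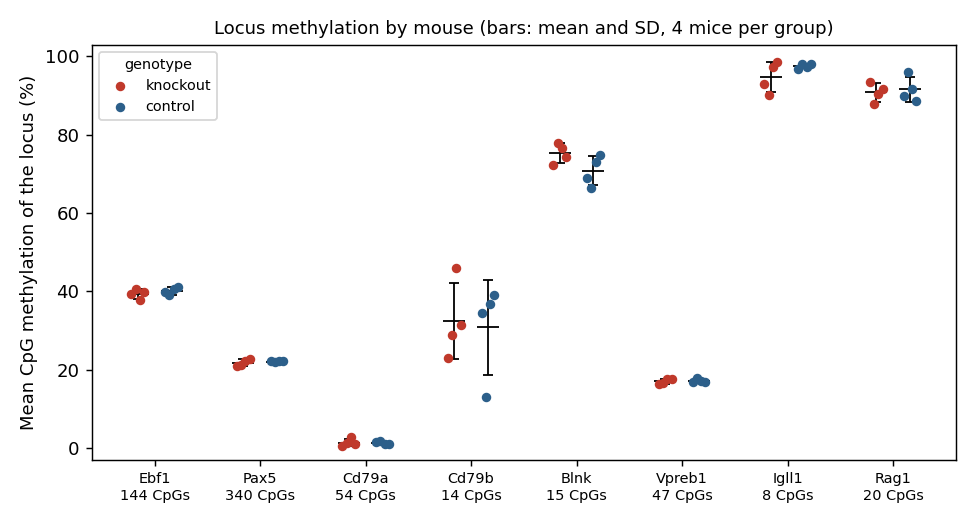
Mean CpG methylation of 8 loci (vertical axis, percent; CpGs measured in all mice, number under each gene) in each knockout (red) and control (blue), with bars for the mean and SD of 4 mice. The groups overlap at every locus, and the Cd79b values run from 13.0% to 46.1%.

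Across the 6 loci whose mean fell between 5% and 95%, none was called by limma (smallest adjusted p = 0.995), none had an unadjusted p under 0.05 and none had groups apart. Over all 12794 gene loci tested these shares were 0%, 4.35% and 2.77%. Without knockout 25, and again without control 37, 1 of the 6 had an unadjusted p under 0.05. Leaving out any other single mouse gave 0. The median difference of the 6 was -0.17 points and their median level 35.7%, beside a median level of 19.9% for all loci measured. In 1 kb windows, 59 could be measured and 35 tested at the 9 genes. None was called, 2 had an unadjusted p under 0.05 (5.71%, against 6.5% of all windows), and none had groups apart (3.48% of all windows). Over the genome 0% of 39903 windows were called, while 32 were without control 34, 7 without knockout 45 and 6 without both knockout 25 and control 34, none of them at the 9 genes. With 1 mouse left out, 1 (without control 36 or 37) to 4 (without knockout 46) member windows had an unadjusted p under 0.05. The 2 were the Rag1 window above and chr4:44615001-44616000 in Pax5, at 91.0% ± 2.86 in knockouts and 96.3% ± 2.67 in controls (adjusted p = 0.764). The smallest-p window of Ebf1, chr11:44801001-44802000, stood at 87.1% ± 9.01 and 95.8% ± 3.17 (adjusted p = 0.795), and that of Blnk, chr19:40986001-40987000, at 97.3% ± 3.58 and 88.4% ± 9.91 (adjusted p = 0.83).

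Of single CpGs, 400 of the 737 (54.3%) had a mean level under 5%, 254 (34.5%) from 5% to 95% and 83 (11.3%) over 95%. Over all autosomal CpGs kept these shares were 56.2%, 24.5% and 19.3%. None of the 254 tested was called, where the genome gave 23 of 313039 (0.00735%). An unadjusted p under 0.05 was reached by 11 (4.33%, against 6.52% of all), with 8 lower and 3 higher where Atg12 was deleted. With 1 mouse left out it was reached by 5 (without control 37) to 15 (without knockout 28, knockout 46 or control 34). With no filter on the level it was reached by 63 of 737. By limma on log2 ratios 10 reached it and by edgeR 3, and neither called any. Groups did not overlap at 7 (2.76%, against 3.11% of all), 4 lower and 3 higher. In the main setting the shares called, with an unadjusted p under 0.05 and with groups apart were near or under those of the genome. The genome share with an unadjusted p under 0.05 was not computed for the other settings. In the main setting 138 CpGs were lower and 116 higher, with a median difference of -0.87 points.

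Of the 7 CpGs whose groups did not overlap, 4 were at the Pax5 locus, which also held 126 of the 254 CpGs tested. Over all CpGs tested in the genome the share with groups apart was 3.11%. The 3 Pax5 CpGs with the largest differences are given first. The CpG at chr4:44602773 read 61.1%, 53.7%, 34.1% and 47.6% in knockouts and 92.9%, 100% and 70.7% in controls 1, 36 and 37, with control 34 not covered (adjusted p = 0.739). The one at chr4:44549467 averaged 75.3% ± 18.8 in knockouts and 98.8% ± 2.35 in controls (adjusted p = 0.759). At chr4:44530643 the direction was opposite, with 100% in the 3 knockouts covered and 81.8%, 10.5% and 53.3% in controls 1, 34 and 36, on 11 to 34 reads (adjusted p = 0.767). In Ebf1 the CpG at chr11:44768585 averaged 70.1% ± 9.62 in 3 knockouts and 94.5% ± 4.61 in 3 controls (adjusted p = 0.771), while that of smallest p, chr11:44690511, averaged 90.02% ± 15.8 in 4 knockouts and 97.8% ± 3.81 in the 3 controls covered, with 66.8% in knockout 45 (adjusted p = 0.733). For the remaining loci, the smallest-p CpG was chr11:106319186 at Cd79b (63.7% ± 17.3 and 44.0% ± 14.9, adjusted p = 0.764), chr2:101648786 at Rag1 (92.3% ± 4.26 and 97.1% ± 2.32, adjusted p = 0.776) and chr7:24902281 near Arhgef1 (49.0% ± 21.6 and 53.6% ± 20.8, adjusted p = 0.922).

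**Figure D4:**
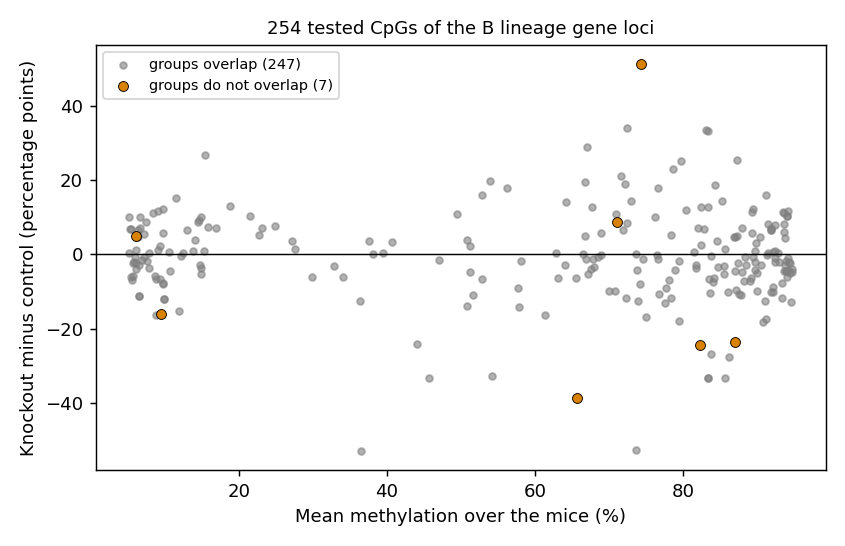
Difference between knockout and control means (vertical axis, percentage points) against mean level (horizontal axis, percent) for the 254 member CpGs tested; each point is a CpG, and orange marks the 7 whose groups do not overlap. Differences lie on both sides of 0, and 4 of the orange points are below it and 3 above.

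Other genes of the lineage were taken from a list of 43, made of transcription factors, surface proteins and receptors, signalling molecules, and enzymes of recombination and antibody diversification. Their loci kept 3417 CpGs, 38 could be measured and 31 tested. None was called or reached an unadjusted p under 0.05, while 0 to 3 reached it with 1 mouse left out. With all mice 18 were lower and 13 higher in the knockouts, with a median difference of -0.06 points. Of those lower, the smallest p values belonged to Bach2 (19.9% ± 0.68 and 20.7% ± 0.76), a repressor that acts in B cell differentiation, Irf4 (26.3% ± 1.68 and 27.5% ± 1.01), a factor of B cell and plasma cell development, and Bank1 (72.4% ± 1.72 and 73.7% ± 1.09), a B cell scaffold protein. Of those higher they belonged to Prkdc (20.4% ± 0.36 and 19.97% ± 0.06), a DNA repair kinase, Vpreb3 (44.0% ± 4.05 and 40.6% ± 2.53), a protein of the pre-B cell receptor pathway, and Cd72 (10.5% ± 0.38 and 10.1% ± 0.20), a B cell coreceptor. All 6 had a limma adjusted p of 0.995.

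The starts of these genes fell along the same divide as those of the members. Of the 15 transcription factors 10 could be measured, 9 of them under 5% and 1, Irf4, between 5% and 80%. The Irf4 start was at 10.7%, 11.3%, 10.9% and 8.80% in knockouts and 20.1%, 14.4%, 15.1% and 16.8% in controls, so the groups did not overlap, but it was not called (quasi-binomial adjusted p = 0.776). Among all 1 kb windows tested 3.48% had groups apart, and this share was not computed for start windows. Of 14 surface proteins and receptors 4 could be measured, with 2 under 5% and 2 over 80%. The latter were Cd22, an inhibitory B cell receptor (84.9% ± 13.2 and 92.5% ± 3.67), and Vpreb2, a close relative of Vpreb1 (96.9% ± 2.52 and 94.2% ± 2.27). All 3 measured signalling genes and all 3 measured recombination genes were under 5%. Among all genes, 86.0% of 12975 start windows were under 5%.

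Lists of other lineages, kept as a reference, gave 0 called loci as well. Unadjusted p values under 0.05 occurred at 3 of 13 T lineage loci tested (Cd247, Cd2 and Lat), 1 of 10 myeloid loci (Ctsg) and 0 of 10 stem cell loci, against 4.35% of all loci, all with adjusted p = 0.995. Groups did not overlap at 2 of the 13 T lineage loci, Cd247 (30.1% ± 0.37 and 31.97% ± 1.28) and Cd2 (77.1% ± 9.90 and 92.4% ± 3.36), against 2.77% of all loci.

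The loci whose pattern over the 8 mice was most like a member's were found for members with an SD of at least 2 points. By Pearson correlation these were Socs2 for Blnk (0.984), Polr3e for Igll1 (0.983) and Eef1akmt4 for Rag1 (0.956). Each is the highest of about 16730 loci compared over the same 8 libraries, and is given as a description.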

How the data were processed

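Bisulfite libraries of 8 mice (4 knockout, 4 control) were analysed. The deposited tables give, per the file headers, the coverage of each cytosine as a count of reads and the percent of reads showing C and T, with no entry under 10 reads. Per the submitters' processing notes, the authors used CASAVA 1.8.2, Bismark and mm10; duplicate removal is not stated. Reads carry no molecular identifiers, so they overstate the molecules behind a level.

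Methylated and unmethylated read counts were recovered from coverage and percent, and strands merged. CpGs, windows of 1 kb and gene starts (1 kb each side) with a mean level of 5% to 95% were tested on all autosomes with a quasi-binomial model moderated by limma 3.58.1 (R 4.3.3). Locus means (at least 3 CpGs measured in all mice) were tested with limma's trend and, per member, an exact permutation test. Windows of any kind also needed 3 such CpGs. Benjamini-Hochberg adjustment covered all features tested, with a threshold of 0.05. edgeR 4.0.16 was an alternative. The window tests were tested on simulated counts, where calls at the largest simulated difference held more false ones than the threshold allows; single CpGs and loci were not simulated. Python 3.11.15 and the RefSeq table of GRCm38.p6 gave loci and starts; Cd79b has no start in it. Members and lists were chosen with earlier results of these data known. Within each member the CpG and window of smallest p and up to 3 CpGs with groups apart are named, and of the other B lineage genes the 3 of smallest p in each direction. Cd247, Cd2, Lat, Ctsg, the Irf4, Cd22 and Vpreb2 starts, and the windows of Ebf1, Pax5 and Rag1 described for their levels or weighting, were chosen after their values were seen. The locus most like Cd79b is not reported here.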

Additional observations from a re-analysis of the deposited data

How the results depend on the processing

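The number of member CpGs, windows, loci and start windows called, and of other B lineage loci called, was 0 under every alternative run, among them higher coverage minimums, no filter on the level and each mouse left out. limma on log2 ratios and edgeR were run for CpGs and windows only. No locus difference passed the exact test except Igll1 with a flank of 2 kb (-8.36 points, 3 CpGs weighted equally), and the cause was not tested. With knockout 25 and control 34 both left out, too few mice remained for any locus to pass this test. In that run Blnk (2.80 points) had an exact permutation p of 0.1, the smallest possible there. Summing reads instead of averaging CpGs changed the sign at Cd79a (-0.10), Cd79b (-3.64), Blnk (-0.26) and Rag1 (3.01), and moved Ebf1 to -3.26 and Igll1 to -0.74. Taking CpGs of at least 3 mice per group changed it at Pax5 (0.048) and Cd79b (-0.067). Leaving out knockout 25 and control 34 together, chosen after seeing the data, changed it at Cd79b (-1.22) and Vpreb1 (0.46), as did at Vpreb1 a coverage of at least 20 reads (0.38) and no flank (0.49). The cause was not tested, and the interval of each main difference spanned 0. Leaving out each mouse in turn gave -1.26 to -0.11 points at Ebf1, -0.76 to 0.041 at Pax5, -0.37 to 0.34 at Cd79a, -4.34 to 4.73 at Cd79b, 1.35 to 6.35 at Blnk, -0.22 to 0.23 at Vpreb1, -4.09 to -1.34 at Igll1 and -1.73 to 0.76 at Rag1. The count of CpGs called over the whole genome ranged from 0 to 191, the highest without knockout 45. Cd79a without flank and Rag2 gave no value, having no kept CpG. No paired analysis was made because the labels give nothing that would pair mice of the groups. Median reads per CpG ranged from 62 at Blnk to 344 at Cd79a, so levels at Blnk rest on the fewest reads. The widest interval of a locus difference was that of Cd79b, -16.0 to 33.1 points.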
